A study of Mus musculus with 5 samples.

Results

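The genes described here encode core proteins of the spliceosome and their close relatives. They were chosen by name alone, as the protein-coding genes of the GENCODE M21 annotation (mouse genome mm10) whose symbol starts with Snrp, Sf3a, Sf3b, Prpf, U2af or Lsm followed by a letter or digit, except Snrpn. This gave 50 of 21951 protein-coding genes. The naming rule used no measured value, though it was set with earlier results of these data known. Lsmem1 is among the 50 by its letters only, since it encodes a membrane protein, and Lsm1, Lsm10, Lsm11, Lsm12, Lsm14a and Lsm14b encode LSm proteins that are known mainly from complexes other than the spliceosome. Methylation was read on 3376 of 468161 exonic positions in the METTL3 inhibition dataset and on 1739 of 193656 in the Mettl5 dataset that lie on these genes.

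The data were 5 libraries of nanopore direct RNA sequencing from mouse embryonic stem cells (mESCs), in which the electrical signal of each native RNA molecule is used to call every adenosine as m6A, unmodified or another modification. In the METTL3 inhibition dataset, 1 culture of E14 mESCs was exposed to the METTL3 inhibitor STM2457 (30 μM, 48 h) and 1 to its solvent DMSO (0.025% v/v). By the study's methods both cultures carried the reporters 2C::3xtbGFP-PEST and Zscan4::mCherry-PEST, the transgene Dox::APOBEC1-YTH-HA-IRES-tdiRFP, which was not induced, and METTL3-FKBP12F36V, a tag for degradation at the C-terminus of both Mettl3 copies that was not used. The Mettl5 dataset held 1 WT library and 1 library from each of 2 Mettl5-KO clones (#1 and #2), all untreated, and the datasets carry different batch labels. A comparison of 2 libraries does not measure the spread between cultures, so p-values and intervals below cover counting error only.

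Splicing removes introns from pre-mRNA and is carried out by small nuclear ribonucleoproteins (snRNPs). Each of U1, U2, U4 and U5 is built on a ring of Sm proteins, and U6 on a ring of LSm proteins. U2 and its SF3A and SF3B complexes bind the branch point, U2AF binds the end of the intron, and the U4/U6.U5 tri-snRNP brings in Prpf8, the protein at the catalytic centre. Most m6A in mRNA is placed by METTL3 with METTL14 within the motif DRACH, which is a base other than C, a purine, the methylated A, a C and a base other than G. It is found mostly near stop codons and in 3′ UTRs, in long exons and away from exon junctions. METTL5 methylates 18S ribosomal RNA.

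Of the 50 genes, 22 were covered in the METTL3 inhibition dataset, that is, had positions that both libraries read with 25 or more valid calls. The Mettl5 dataset covered 15, of which Sf3b1 was covered there only, and 27 genes were covered in neither. By role, the METTL3 inhibition dataset covered 2 of 7 Sm ring genes (Snrpb and Snrpd3), 0 of 5 genes of U1 proteins, 9 of 14 genes of U2 and the 3′ splice site, 4 of 10 of the tri-snRNP and its activation, 4 of 7 of the U6 LSm ring and 3 of 6 other LSm genes. The uncovered genes included Snrpd1, Snrpd2, Snrpe, Snrpf and Snrpg of the Sm ring, Snrpa, Snrpc, Prpf39 and Prpf40b of U1, Snrpb2, Sf3a3, Sf3b4 and U2af1 of U2, Prpf3, Prpf4b, Prpf6, Prpf18, Prpf38a and Prpf38b of the tri-snRNP group, Lsm5, Lsm6 and Lsm7 of the U6 ring, and Lsm11, Lsm12, Lsm14b and Lsmem1. Nothing can be said of methylation on the uncovered mRNAs.

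The libraries held 71574467 valid calls for DMSO, 54051900 for STM2457, 22025887 for WT, 17897440 for clone #1 and 19532075 for clone #2. On the spliceosome genes the median coverage of a position was 85, 65, 59, 31 and 46 reads in the same order. The cells' identity was checked on markers: 9 of 10 embryonic stem cell genes were covered in the METTL3 inhibition dataset (all but Dppa4) and 7 of 10 in the Mettl5 dataset (all but Esrrb, Klf4 and Dppa4), while 0 of 8 genes of differentiated cells were covered in either. Mettl5 itself had no covered position, so the KO labels could not be checked on it.

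An m6A site was taken as a position with more than 25 valid calls in every library of the dataset and a methylation level that reached 25% in at least one of them. The level is the number of m6A calls per 100 valid calls. In the METTL3 inhibition dataset 48 of the 6201 exonic sites lay on 13 of the 22 spliceosome genes, and 24 of the 48 lay on Lsm10 and Prpf4, with 12 each. The windows below carry the sites that the results turn on. Each is read 5′ to 3′ from the GENCODE M21 transcript, with the called A in the centre and the 5 bases that are compared with DRACH in capitals.
Sf3b5 site at 13009013: tcatggagAGACTgtccgggt
Sf3b5 site at 13009037: ctccttgtGAACTgtgcagaa
Sf3b5 site at 13008864: ccgcccgcGGACAagcccgag
Sf3b5 site at 13008879: cccgaggaGAACTgaggtgag
Sf3b3 site at 110810842: ggtatttaAGACTgcattgtt
Prpf31 site at 3640959: cactgaaaGGACAtaaaggac
Prpf31 site at 3640968: gacataaaGGACTggagcttc
Prpf4 site at 62423428: ccacggaaGGACTcagaactt
Prpf4 site at 62423929: agatagctGGACTggctaggc
Prpf4 site at 62424087: agatagctGGACTgtatttga
Lsm10 site at 126098223: aggccatgAGACTgtgtcctc
Lsm10 site at 126098044: accgctggGGACAtcaggttg
Lsm4 site at 70678605: gtggagccTTAGAtgcccttt
Sf3a2 site at 80804478: tgcacccaCCAGCtccagggg
The first 12 are DRACH windows and the last pair are not, and the site at 13008879 passed in the Mettl5 dataset only. The Sf3b5 sites lie on chromosome 10, the Sf3b3 and Lsm4 sites on 8, the Prpf31 sites on 7, the Prpf4 and Lsm10 sites on 4 and the Sf3a2 site on 10. All are on the plus strand except that of Sf3b3.

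Upon METTL3 inhibition, methylation was called lower at all 40 DRACH sites of the spliceosome mRNAs, as at 97.5% of DRACH sites over all exons. Outside the motif, 5 sites did not pass the test. Of the 48 sites, 43 were called lower in STM2457 and 0 higher by Fisher's exact test (two-sided, adjusted p below 0.05 after Benjamini-Hochberg adjustment over all 6201 exonic sites). Over all exonic sites 91.5% were called lower and 0.323% higher, so the share of 89.6% on the spliceosome genes was near the background. The 48 sites averaged 55.6% in DMSO and 18.1% in STM2457, and all exonic sites 56.3% and 16.2%. The relative decrease, which is the loss in level as a share of the level in DMSO, averaged 61.1% (SD over sites 53.8, n = 48), with a median of 76.6%, against 71.8% and a median of 79.9% over all exonic sites. This mean includes the Sf3a2 positions at 80804394 and 80804457, with relative decreases of -157% and -163%. They had only 11.1% and 9.52% in DMSO and reached 25% in STM2457 only. At DRACH sites alone the mean was 75.7%, against 77.4% over all exonic DRACH sites. Sites of 1 gene share reads, and Lsm10 and Prpf4 weigh heavily in these counts. Without these genes, a choice made after their values were seen, 19 of 24 sites were called lower and the mean relative decrease was 49.3%, with a median of 76.8%. The same Sf3a2 positions are part of this mean.

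**Figure D1:**
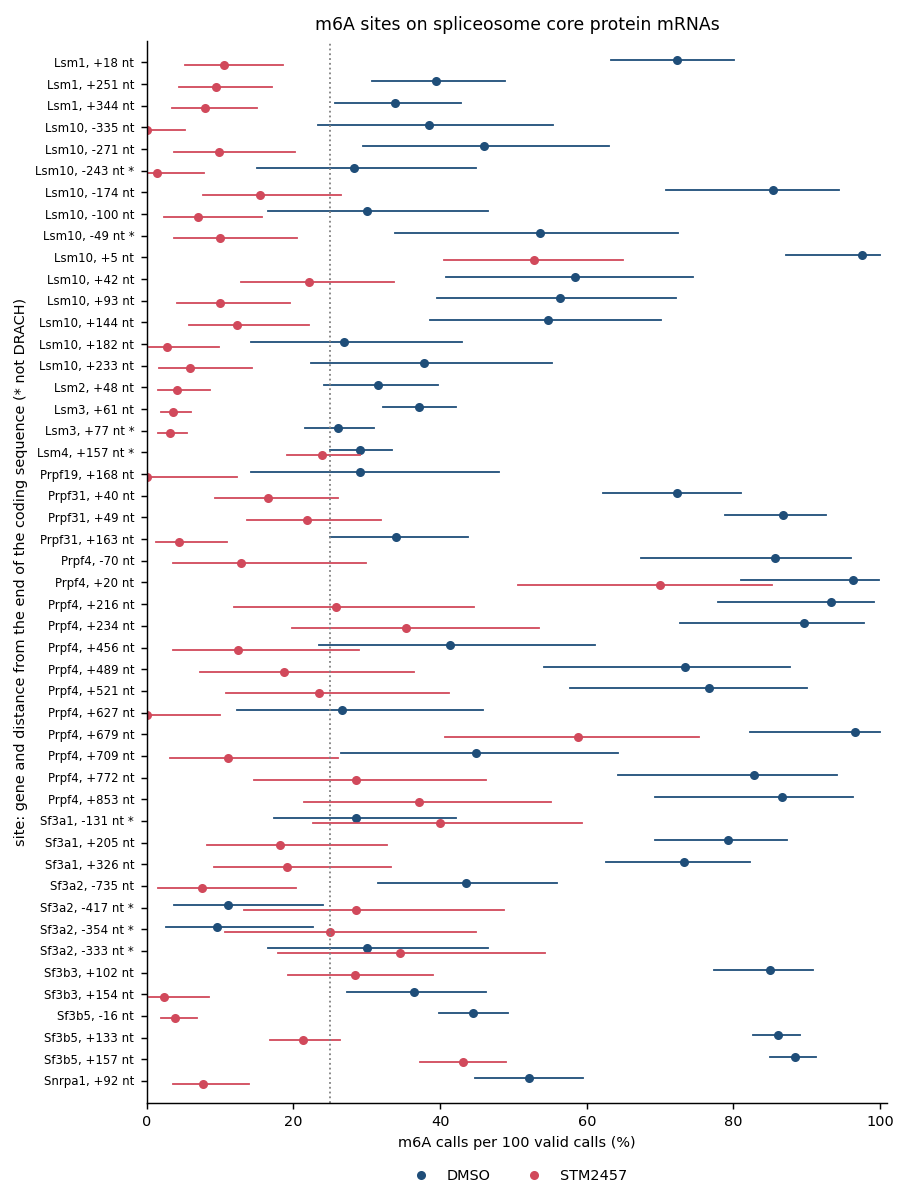
Methylation level (x axis, m6A calls per 100 valid calls) of the 48 sites on spliceosome genes (y axis, gene and distance in nt from the end of the coding sequence, negative within it), as points with exact binomial 95% intervals, for the DMSO and STM2457 libraries. The dotted line marks 25%, and the 8 sites with an asterisk lack a DRACH motif, among them the 5 that were not called lower.

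All 5 sites that did not pass the test lay outside the motif. Of the 48 sites, 40 were read in a DRACH window (83.3%, against 88.6% of all exonic sites), and all 40 were called lower, from a mean of 61.3% in DMSO to 17.6% in STM2457. Over all exons 97.5% of 5493 DRACH sites were called lower, so this count was near the background. Of the 8 sites without it, 3 were called lower (37.5%, against 45.1% of 708 such sites over all exons). Each of these 3 windows has AC in its centre, as DRACH does (CAACT and GGACG on Lsm10, AGACG on Lsm3). The 5 uncalled sites, on Lsm4, Sf3a1 and Sf3a2, were read in TTAGA on Lsm4, in GCATG on Sf3a1 and, at all 3 Sf3a2 sites, in CCAGC. Calls that failed the confidence filter, which are not part of the level, made up a median of 39.2% of all calls in DMSO and 41.7% in STM2457 at these 5 sites, against 2.75% and 2.86% at the 43 called lower. With failed calls counted in the denominator, 42 of the 43 sites that still reached 25% were called lower. The Lsm4 site then stood at 20.3% and 15.5%, the Sf3a2 sites were likewise under 25% in both libraries, and the Sf3a1 site in GCATG had 21.1% in DMSO and 36.4% in STM2457. Summed over all 288 covered DRACH positions of the spliceosome genes, with no threshold on the level, the share of m6A calls was 8.97% in DMSO and 2.28% in STM2457, and over the 3088 other positions it was 1.05% and 0.901%.

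Among the genes of U2 and the 3′ splice site, 5 carried 13 sites, of which 9 were called lower. Sf3b5 encodes the smallest subunit of SF3B and lies on chr10:13005343-13009183 as a single exon. Its site at 13009013, in the 3′ UTR 133 nt after the coding sequence, had 86.1% of 482 calls in DMSO and 21.3% of 300 in STM2457 (adjusted p by Fisher's exact test = 2.60e-74). At 13009037, 24 nt further on, the level was 88.4% of 423 calls and 43.1% of 288 (Fisher's exact test, adjusted p = 4.71e-38). The site at 13008864, 16 nt before the end of the coding sequence, had 44.5% of 454 calls and 3.89% of 283 (Fisher's exact test, adjusted p = 1.06e-36). The neighbouring 3′ UTR sites had overlapping intervals in DMSO, while the exact 95% intervals of their STM2457 levels, 16.8% to 26.4% and 37.3% to 49.0%, did not overlap. Failed calls were 2.63% in DMSO and 1.32% in STM2457 at 13009013, and 14.4% and 4.95% at 13009037. With failed calls in the denominator, the levels were 83.8% in DMSO and 21.1% in STM2457 at 13009013, and 75.7% and 40.9% at 13009037, so the DMSO levels then lay further apart.

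Sf3b3, a large SF3B subunit that scaffolds the complex, had 85% of 120 calls in DMSO and 28.4% of 88 in STM2457 at 110810842, and 36.4% of 107 and 2.41% of 83 at 110810790. The latter relative decrease, 93.4%, was the largest of all sites with more than 50 calls in both libraries. Sf3a1, a subunit of SF3A that contacts U2 and U1 (chromosome 11), had 79.3% of 87 calls and 18.2% of 44 at 4180337, and 73.3% of 86 and 19.1% of 47 at 4180458, both in its last exon. Snrpa1, which binds U2 RNA, had 1 site (chromosome 7, 66074469), with 52.1% of 188 calls and 7.63% of 118. All of these sites were called lower by Fisher's exact test, and the largest adjusted p among them was 6.18e-09, at the second Sf3b3 site. Sf3b2 missed the site threshold narrowly, as its highest DRACH position had 24.8% of 133 calls in DMSO and 1.08% of 93 in STM2457.

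The uncalled sites of this group were on Sf3a1 and Sf3a2. In the last but one exon of Sf3a1, at 4179393, the level was 28.6% of 56 calls in DMSO and 40% of 30 in STM2457 (adjusted p by Fisher's exact test = 0.351). Sf3a2 encodes the SF3A subunit with a long proline-rich end, and its sequence there repeats in steps of 21 nt, so that the window at 80804478 occurs in 3 identical copies. The levels at the copies were 9.52%, 30% and 11.1% in DMSO and 25%, 34.5% and 3.33% in STM2457, and pooled over the copies they were 16.5% and 20.7%. Neither copy that passed as a site was called (Fisher's exact test, adjusted p = 0.113 at 80804457 and 0.806 at 80804478). Another position in CCAGC, at 80804394, had 11.1% of 45 calls and 28.6% of 28 (Fisher's exact test, adjusted p = 0.0738). How reads were assigned among identical copies was not checked, so the level of a single copy is uncertain. The DRACH site of the same mRNA, at 80804076, had 43.5% of 69 calls in DMSO and 7.50% of 40 in the treated library (Fisher's exact test, adjusted p = 1.01e-04). Whether the uncalled CCAGC positions carry m6A was not tested.

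In the tri-snRNP group, Prpf4, Prpf31 and Prpf19 carried 16 sites, all 16 called lower. Prpf31, which holds the U4 and U6 snRNPs to U5, had a pair of sites 9 nt apart. At 3640968 the level was 86.8% of 106 calls in DMSO and 21.8% of 87 in STM2457 (adjusted p by Fisher's exact test = 3.00e-19), and at 3640959 it was 72.3% of 94 and 16.5% of 85 (Fisher's exact test, adjusted p = 2.26e-13). A further site at 3641082 had 34.0% of 106 calls and 4.44% of 90. Prpf19, a ubiquitin ligase needed for activation, had 29.0% of 31 calls and 0 of 28 at its site (chromosome 19, 10905297), which allows a level of up to 12.3% in STM2457 by the exact interval.

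Prpf4 (chr4:62408797-62426990), a U4/U6 protein, was covered in the last exon only, by 27.6 reads per position on average in DMSO, and had 5.36 sites per 100 covered positions, next to Lsm10 with 7.27. Its 12 sites spread from 70 nt before to 853 nt after the end of the coding sequence, with levels from 26.7% to 96.6% in DMSO and from 0% to 70% in STM2457. Of these, 6 were still at 25% or more in STM2457. The highest remaining level of all spliceosome sites was at 62423428, 20 nt after the coding sequence, with 96.3% of 27 calls in DMSO and 70% of 30 in STM2457 (adjusted p by Fisher's exact test = 0.0148). Its relative decrease of 27.3% was the smallest of the called sites. The sites at 62423929 and 62424087 lie 158 nt apart and share the first 14 bases of their windows, yet had 76.7% of 30 and 96.6% of 29 calls in DMSO and 23.5% of 34 and 58.8% of 34 in STM2457.

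**Figure D2:**
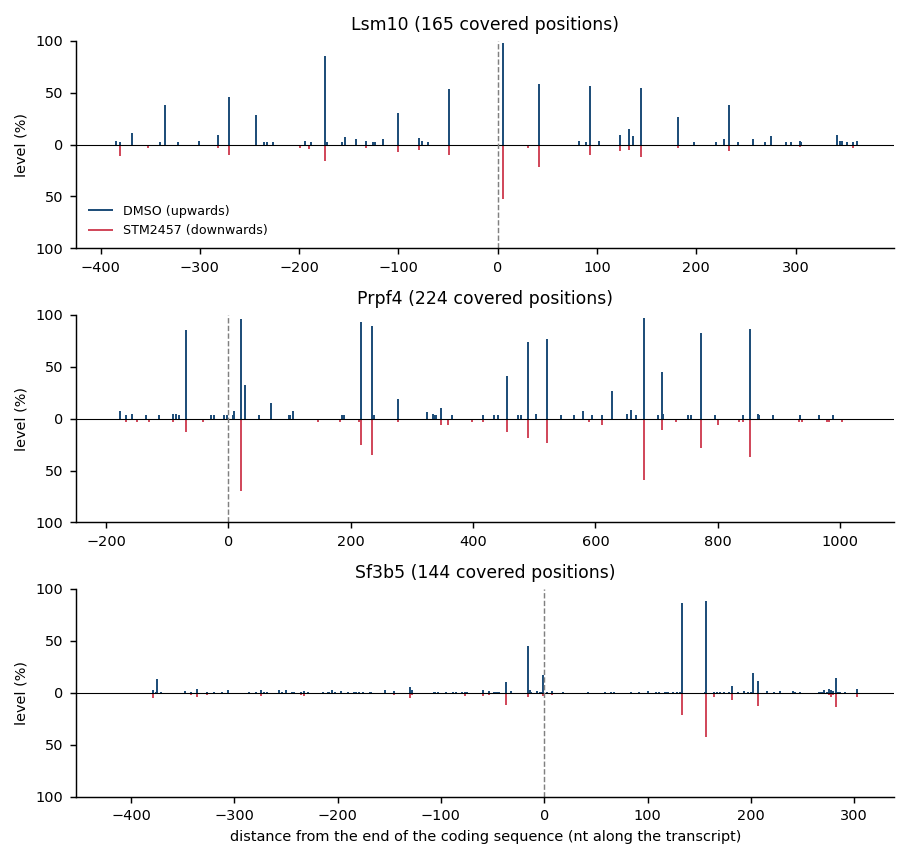
Methylation level at every covered position of Lsm10, Prpf4 and Sf3b5 (x axis, nt along the transcript from the end of the coding sequence, dashed line), with DMSO drawn upwards and STM2457 downwards in percent of valid calls. Lsm10 and Prpf4 have 12 sites each spread along the covered part, while Sf3b5 has 3, of which the pair in the 3′ UTR stands highest.

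The U6 LSm ring carried 4 sites on 3 genes, at lower levels. Lsm3 (chromosome 6) had 37.1% of 383 calls in DMSO and 3.54% of 367 in STM2457 at 91522379 (Fisher's exact test, adjusted p = 7.01e-32), and 26.1% and 3.13% at 91522395. Of the 90 covered positions of Lsm3, 38 also lie on the overlapping gene AC161456.1. Lsm2 (chromosome 17) had 31.5% of 149 calls and 4.05% of 148 at 34985587 (Fisher's exact test, adjusted p = 7.47e-10). Lsm4 had 29.1% of 457 calls and 23.8% of 302 at 70678605 (Fisher's exact test, adjusted p = 0.12), with 30.3% and 35.1% failed calls, and this was the smallest relative decrease, 18.1%, among sites with more than 50 calls in both libraries. At the same position the level was 7.48% of 107 calls in WT, 4.76% of 63 in clone #1 and 4.23% of 71 in clone #2, so the WT level lay further from the DMSO level than the STM2457 level did. The difference between the datasets was not tested.

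Lsm10, which replaces an Sm protein in the U7 snRNP of histone mRNA processing, had all its 12 sites called lower (chr4:126096623-126098584). Of these, 6 lay in the coding sequence and 6 in the 3′ UTR, all in its last exon. The highest, at 126098223, 5 nt after the coding sequence, had 97.6% of 41 calls in DMSO and 52.9% of 70 in STM2457 (adjusted p by Fisher's exact test = 2.83e-07). At 126098044, within the coding sequence, the level was 85.4% of 41 and 15.4% of 65 (Fisher's exact test, adjusted p = 2.44e-12), and at 126097883 it was 38.5% of 39 and 0 of 69. Lsm1, of the cytoplasmic ring that acts in mRNA decay (chromosome 8), had 72.3% of 119 calls and 10.5% of 95 at 25802113 (Fisher's exact test, adjusted p = 1.08e-19), 39.5% and 9.38% at 25802346, and 33.9% and 7.92% at 25802439.

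The level left after inhibition was higher where the DMSO level was higher. Of the 40 DRACH sites, the 17 at 25% to 50% in DMSO had a median of 37.1% there and 4.44% in STM2457, and 0 of them stayed at 25% or more. For the 8 sites at 50% to 75% the medians were 65.3% and 14.4%, again with 0 staying. The 15 sites at 75% or more had medians of 86.7% and 28.4%, and 9 of them (60%) stayed, as did 61.0% of the 1665 such sites over all exons. All 9 had a T as the last base of the motif: of the 23 sites ending in T, 39.1% stayed, and of the 17 ending in A or C, 0, against 23.0% and 13.4% over all exonic DRACH sites. Of the 9, 7 lie on Prpf4 and Lsm10, and without these genes 2 of 12 sites ending in T stayed (16.7%) and 0 of 6 ending in A or C. The sites ending in T also had the higher median in DMSO, 76.7% against 44.8%. Counting every motif, 11 of the 46 sites at 25% or more in DMSO stayed there (23.9%, against 20.9% of all exonic sites). A relative decrease under 25% was found at 3 of the 46, on Lsm4, Sf3a1 and Sf3a2 as given above (6.52%, exact 95% interval 1.37% to 17.9%, against 4.40% of all exonic sites), and at 0 of the 40 DRACH sites.

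Of the 48 sites, 35 lay in a 3′ UTR and 13 in a coding sequence, and 47 lay in the last exon of the main transcript (97.9%, against 91.2% of all exonic sites). The single exception was the Sf3a1 site in GCATG. Because coverage decides where a site can be seen, sites were also counted per DRACH position with more than 25 calls in both libraries. In DMSO 40 of 283 such positions on spliceosome genes reached 25% (14.1%, exact 95% interval 10.3% to 18.7%), as did 14.4% of 38030 on all protein-coding genes. Without Lsm10 and Prpf4, a choice made after the data were seen, 18 of 236 did (7.63%, exact 95% interval 4.58% to 11.8%). Within 100 nt of an exon junction it was 1 of 128 (0.781%, against 2.06%), from 100 to 200 nt 9 of 42 (21.4%, against 21.1%), and at 200 nt or more, or with no junction, 30 of 113 (26.5%, against 20.7%). Internal exons had 0 of 96 (up to 3.77% by the exact interval, against 4.0%) and last exons 40 of 187 (21.4%, against 18.4%). The 1 site within 100 nt of a junction was the Lsm10 site at 126097883, 54 nt away. In 3′ UTRs 33 of 132 DRACH positions (25%) were sites and in coding sequences 7 of 148 (4.73%), against 18.6% and 9.48% over all protein-coding genes. Positions on 1 gene are not independent, and these shares were not tested against each other.

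**Figure D3:**
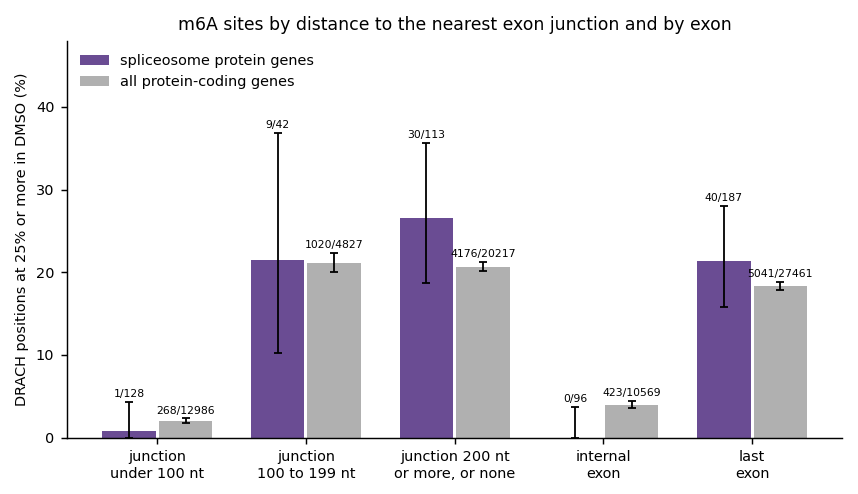
Share of covered DRACH positions that reached 25% methylation in DMSO (y axis, percent) by distance to the nearest exon junction and by exon, for the spliceosome protein genes and for all protein-coding genes. Bars give the share with its exact binomial 95% interval, and the numbers above give sites over positions, with 1 of 128 within 100 nt of a junction and 30 of 113 at 200 nt or more. Without Lsm10 and Prpf4, which is not drawn, the latter was 11 of 79 (13.9%), and last exons had 18 of 140 (12.9%).

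At the level of the whole gene, given by the summed m6A calls per 100 summed valid calls over all its covered positions, 21 of 22 spliceosome genes were lower in STM2457. Over all 2437 protein-coding genes with at least 20 covered positions the share was 95.1%. The exception was Lsm14a, a P-body protein gene with a mean coverage of 27.4 reads in DMSO, with 0.650% in DMSO and 0.796% in STM2457 and 0% and 0.855% over its 3 DRACH positions. For Sf3a2 the levels were 1.61% in both. On DRACH positions alone the order in DMSO began with Prpf4 (34.4%, and 12% in STM2457), Prpf31 (30.9% and 6.67%), Lsm10 (30.3% and 7.42%) and Sf3b5 (22.7% and 6.49%), and the median over the 22 genes was 6.54% and 0.785%. Calls of 1 read are not independent, so neighbours in this order were not tested.

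At least 1 site was found on 59.1% of the covered spliceosome genes, against 68.3% of those 2437 genes. The 9 without one in the METTL3 inhibition dataset were Snrpb and Snrpd3 of the Sm ring, Prpf8, Sf3b2, Sf3b6, U2af2, U2af1l4, Lsm8 and Lsm14a. Of these, 2 had at least 200 covered positions. Prpf8, a very large and highly conserved protein, had 29 covered DRACH positions, whose summed level went from 0.812% in DMSO to 0.0894% in STM2457. The highest of these DRACH positions had 13% of 54 calls and 0 of 53. Sf3b2 had 17 DRACH positions with 6.31% and 0.524%. Of the Sm genes, Snrpb had 0.477% and 0.353% over 10 DRACH positions and Snrpd3 had 0.341% and 0.491% over 5. The positions of U2af1l4 all lie on exons of Gm49396 as well, so its values may belong to either gene.

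**Figure D4:**
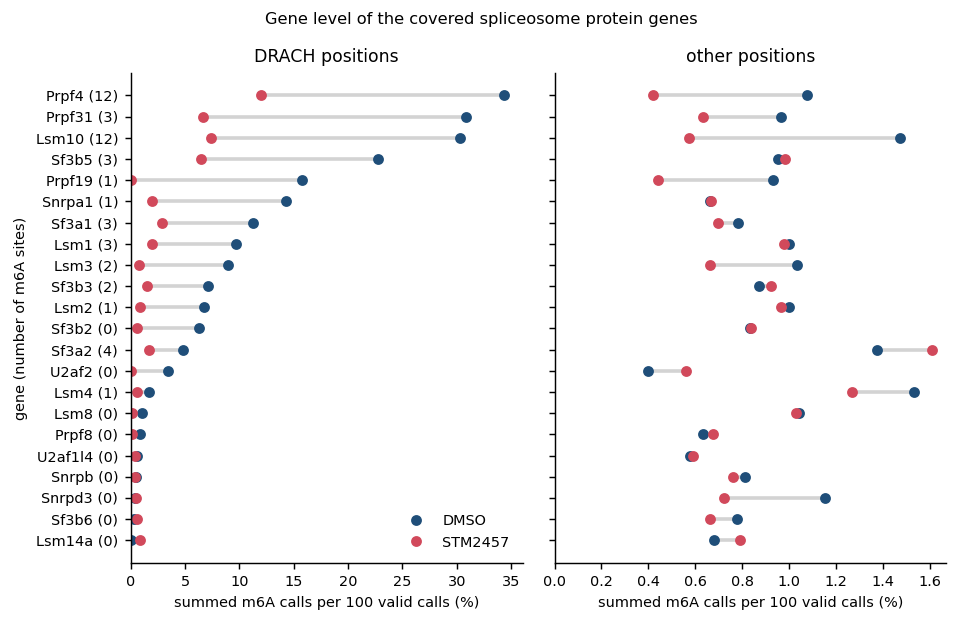
Summed methylation level (x axes, m6A calls per 100 valid calls) of the 22 covered spliceosome protein genes in DMSO and STM2457, over DRACH positions on the left and all other positions on the right, on separate scales, with the number of m6A sites in brackets. On the left the 4 highest genes in DMSO are Prpf4, Prpf31, Lsm10 and Sf3b5, and on the right all levels lie between 0.398% and 1.61%.

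The genes with most sites, Lsm10 and Prpf4, had the higher coverage in the STM2457 library. So did Lsm14a, Sf3b6 and Snrpd3, which had no site in this dataset. In the Mettl5 dataset Lsm14a had 1 site, at a position that was not covered in the METTL3 inhibition dataset. Coverage per gene was set relative to the median protein-coding gene, whose mean coverage in STM2457 was 0.816 times that in DMSO. Lsm10 had 36.3 reads per position in DMSO and 65.2 in STM2457, a relative coverage of 2.20, and Prpf4 had 27.6 and 31.9 reads, a relative coverage of 1.41. The 11 genes with 1 to 4 sites had a median of 0.891 (0.568 to 1.21) and the 9 without a site 1.03 (0.760 to 1.62). Among these 9, Lsm14a had 1.62, Sf3b6 1.31 and Snrpd3 1.28. The lowest of all was Sf3a1, with 72.8 reads in DMSO and 33.8 in STM2457. Over all genes the medians were 0.921 without a site, 1.01 with 1 to 4 and 1.08 with 5 or more. Across the 22 genes, which are not independent replicates, the Spearman correlation of the DMSO gene level with the relative coverage was 0.038, against 0.211 over all genes. With 1 library per condition these ratios have no replicate check. In bulk libraries fewer cells of a type and less RNA per cell cannot be told apart. Covered positions have at least 25 valid calls in both libraries, and positions below this floor are absent. The DMSO means of Prpf4 (27.6 reads) and Lsm14a (27.4 reads) lay near it, so the size of their ratios is uncertain.

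For a wider view, 47 other genes of spliceosome proteins outside the naming rule were listed, and 26 of them were covered. They carried 41 sites on 17 genes, of which 39 were called lower and 1 higher in STM2457, with a median relative decrease of 86.4%. The remaining pair, named after their values were seen, lay 5 nt apart on Ppil1, a splicing-associated prolyl isomerase. Its site in ACAGA rose from 21.7% of 129 calls to 34.5% of 139 (Fisher's exact test, adjusted p = 0.0240), and that in ATAAA had 38.8% of 85 and 50% of 60 (adjusted p = 0.246). Neither is a DRACH motif.

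Upon Mettl5 deletion no spliceosome site changed by the test. In the Mettl5 dataset 11 of 1886 exonic sites lay on 5 spliceosome genes, with 5 on Sf3b5, 2 each on Lsm3 and Sf3b3 and 1 each on Lsm2 and Lsm14a. By Fisher's exact test, 0 of the 11 differed from WT at an adjusted p below 0.05 in clone #1 and 0 in clone #2, and the smallest adjusted p were 0.357 and 0.253. The background over all exonic sites was 0.530% in clone #1, 0.583% in clone #2 and 0.265% in both in the same direction. At an unadjusted p below 0.05 there were 3 of the 11 sites in clone #1 (on Lsm2, Lsm3 and Sf3b5) and 1 of the 11 in clone #2 (on Sf3b5), where the background over all exonic sites was 6.73% and 8.06%. The 11 sites averaged 40.2% in WT, and 41.5% and 41.6% in clones #1 and #2, a difference of 1.4 percentage points (SD of the clone means 0.0425, n = 2), against 44.0%, 46.4% and 46.4% over all exonic sites. The sign of this difference depended on the setting, and with coverage above 50 reads, which left 4 sites, it was -6.57 points. Both clones lay above WT at 3 sites (27.3% of the 11, against 45.1% of all exonic sites) and both lay below WT at 3 others (27.3%, against 23.3%). The 1 WT library serves both comparisons.

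The Sf3b5 sites at 13009013 and 13009037 had high levels in all 3 libraries. At 13009013 the level was 87.9% of 66 calls in WT, 76.4% of 55 in clone #1 and 81.1% of 90 in clone #2, and at 13009037 it was 84.7% of 59, 83.0% of 47 and 91.8% of 73. The Sf3b3 site at 110810842 had 86.4% of 59 calls in WT, 93.8% of 48 in clone #1 and 84.6% of 26 in clone #2. At all 3 sites the intervals of the 3 libraries overlapped.

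Of the 11 sites, 1 was below WT in both clones at an unadjusted p below 0.05, against 0.530% of all exonic sites. Above WT in both were 0, against 1.86%. With so few sites these counts were not tested against the background. The site below was the Sf3b5 site at 13008879 in the last codon of the coding sequence. It had 31.9% of 72 calls in WT, 10.9% of 55 in clone #1 and 12.9% of 93 in clone #2 (Fisher's exact test, p = 0.00558 and 0.00386, adjusted p = 0.357 and 0.253). In DMSO the same position had 16.9% of 473 calls, so the WT library was the highest of the 4 libraries without METTL3 inhibition, and in STM2457 it had 2.74% of 292. The reverse order was seen at the Lsm2 site at 34985587, with 8.89% of 45 calls in WT, 31.9% of 47 in clone #1 and 23.2% of 56 in clone #2 (Fisher's exact test, p = 0.00916 and 0.0655, adjusted p = 0.409 and 0.651), where DMSO had 31.5%. The exact 95% interval of the WT level overlapped those of both clones at both sites. At the Sf3b5 site the intervals were 21.44% to 44.0% in WT, 4.11% to 22.2% in clone #1 and 6.85% to 21.45% in clone #2. At the Lsm2 site they were 2.48% to 21.2% in WT, 19.1% to 47.1% in clone #1 and 13% to 36.4% in clone #2. The Lsm3 site, at 91522423 in AAATG, had 10% of 80, 25% of 36 and 15.9% of 44 (Fisher's exact test, p = 0.0472 and 0.392), with 12.6% of 286 in DMSO, and lies on AC161456.1 as well. At Lsm14a, covered by 28 to 32 reads, the levels were 39.3%, 30% and 31.3%. The remaining 4 sites were between 11.7% and 30.3% in WT, 15.8% and 38.9% in clone #1, and 26.1% and 32.4% in clone #2.

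**Figure D5:**
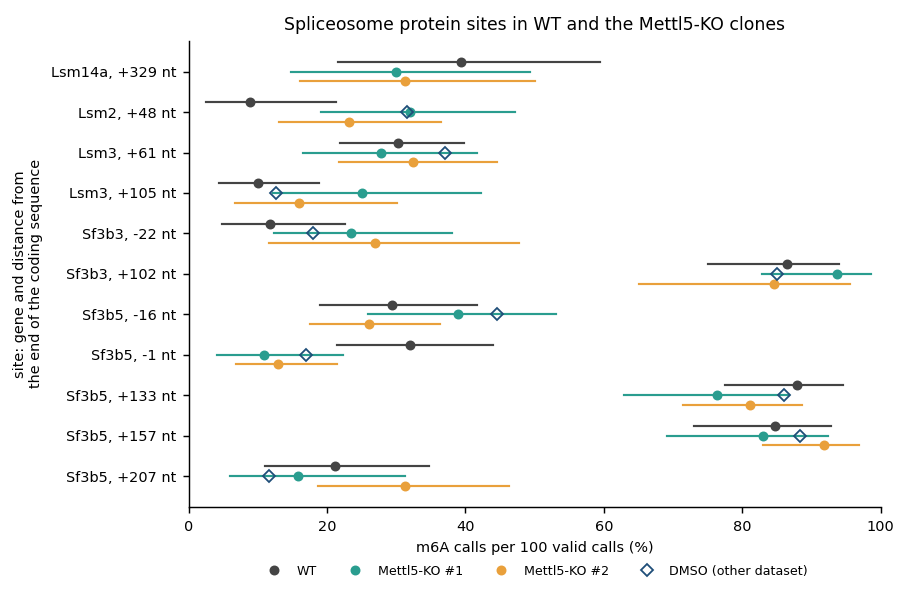
Methylation level (x axis, m6A calls per 100 valid calls) of the 11 spliceosome sites of the Mettl5 dataset (y axis, gene and distance from the end of the coding sequence) in WT and both Mettl5-KO clones, with exact binomial 95% intervals, and in DMSO of the other dataset as open diamonds. WT lies above both clones at the Sf3b5 site 1 nt before the end of the coding sequence (31.9% against 10.9% and 12.9%) and below both at the Lsm2 site (8.89% against 31.9% and 23.2%).

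Over the 14 spliceosome genes covered in both datasets, 1327 positions were shared. The summed level on them was 1.64% in DMSO, 1.52% in WT, 1.55% in clone #1 and 1.64% in clone #2, and 0.924% in STM2457. On all covered DRACH positions of the Mettl5 dataset the sum gave 4.0% for WT, 4.48% for clone #1 and 4.95% for clone #2, beside 4.87%, 5.22% and 5.12% for all exonic DRACH positions. Coverage relative to the median gene, as a ratio to WT, was 1.36 in clone #1 and 2.54 in clone #2 for Snrpd3. It was 0.545 and 0.559 for Lsm3, 0.482 and 0.677 for Prpf8, and 0.857 and 1.66 for Sf3b1. These genes were named after their values were seen. Covered positions have at least 25 valid calls in every library. In clone #1 the mean lay near this floor for Prpf8 (27.9 reads) and Sf3b1 (25.7 reads). Positions below the floor are absent, so the size of the change in clone #1 cannot be read from the ratios of Prpf8 and Sf3b1. The listed spliceosome genes outside the rule had 21 sites on 9 genes in this dataset, with 0 called in either clone at the adjusted threshold and 2 and 0 at an unadjusted p below 0.05, beside the 6.73% and 8.06% over all exonic sites.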

How the data were processed

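By the methods, the authors used WarpDemuX to split the reads by barcode, dorado for basecalling, modification calling and alignment (mm10), and modkit to summarise calls. Deposited were raw counts of valid, m6A, unmodified, other-modification and failed calls for each position and strand, and the m6A percent among valid calls. Failed calls are outside that percent. Reads start at the poly(A) tail, so 3′ ends and abundant mRNAs are covered best.

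From the counts, positions were assigned to exons of GENCODE M21 genes on the call strand. Sites had more than 25 valid calls in all libraries of a dataset and 25% or more in at least one. This choice uses the levels that are compared, and the sums over all DRACH positions do not. Fisher's exact test (two-sided) was run per site on m6A and unmodified calls of the deposited counts, with Benjamini-Hochberg adjustment over all exonic sites of the dataset (scipy 1.17.1 with pandas 2.3.3, numpy 2.4.6 and Python 3.11.15), and was tested on simulated data. Shares have exact binomial (Clopper-Pearson) 95% intervals. Gene levels are summed m6A calls over summed valid calls. The main transcript of a gene gave regions, distances and sequences.

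The naming rule of the genes used no measured value, but the rule, the role lists and the marker lists were chosen with earlier results of these data known. Named sites were, per role list, the pair with the highest DMSO level among those above 50 calls in both libraries, the sites with a relative decrease under 25%, the largest and smallest decreases above 50 calls, sites called in a clone, the 3 genes with most sites and genes with at least 200 positions and no site. Alternatives changed the coverage and level thresholds, failed calls, exons, motif, summation and clones. One uncovered gene is not reported here by name.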

Additional observations from a re-analysis of the deposited data

Results flagged for a closer look

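The deposited counts also hold calls of other modifications of A, which no comparison above used. On spliceosome genes, 6 of 1780 positions with more than 50 valid calls in both libraries of the METTL3 inhibition dataset had a share of such calls that reached 10% in each (0.337%, against 541 of 220640 exonic positions, 0.245%). No control library without modification exists in these data, and none of the windows is a DRACH motif.

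In the coding sequence of Snrpb, at chromosome 2 position 130177133 (ACATT), the share was 26.6% of 282 calls in DMSO and 30.1% of 186 in STM2457, and 16.4% in WT, 16.9% in clone #1 and 9.76% in clone #2. For Lsm4, at chromosome 8 position 70678035 (TCATT), it was 15.8% and 14%, and 9.76%, 20% and 16.4% in the Mettl5 libraries. At Lsm2, chromosome 17 position 34985438 (TCATC), it was 13.8% and 10.2%, and 10.8%, 20% and 5.26%. Covered in the METTL3 inhibition dataset only were Sf3b2 at chromosome 19 position 5275136 (GTATT), with 19.5% and 16.9%, Sf3b6 at chromosome 12 position 4827180 (TTATT), with 11.5% and 17.6%, and Lsm1 at chromosome 8 position 25801970 (CTATT), with 10.5% and 10.4%. These levels were not tested against each other.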

How the results depend on the processing

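In the METTL3 inhibition dataset most spliceosome sites were called lower in STM2457 under every alternative run. In the main setting this was 43 of 48 sites, against 91.5% of all exonic sites. It was 15 of 16 with coverage above 50 reads, 63 of 113 at a level of 10% or more and 24 of 24 at a level of 50% or more. Without Lsm10 and Prpf4, chosen after the data were seen, it was 19 of 24. For the other coverage and level thresholds no share over all exonic sites is given, so those counts are not set against a background. The mean relative decrease of 61.1% became 76.5% with coverage above 50 reads, 25.4% at a level of 10% or more, 72.8% with failed calls in the denominator, 75.7% for DRACH motifs only, 71.5% for summed calls and 49.3% without Lsm10 and Prpf4. The 3 sites with a relative decrease under 25% became 1 with coverage above 50 reads, 18 at 10% or more, 0 at 50% or more, 0 with failed calls counted, 0 for DRACH motifs only, and 6 with a decrease under 50% as the rule. Sites per 1000 covered positions were 14.6, and 8.99 with coverage above 50 reads, 34.4 and 7.30 at the 10% and 50% levels, 141 among DRACH positions and 8.20 without Lsm10 and Prpf4. Taken over sites only, the gene level was lower for 13 of 13 genes, against 21 of 22 over all positions. For the Mettl5-KO clones, 0 sites were called in both clones under every alternative run. The mean difference of 1.4 percentage points became 2.55 at a coverage of at least 25 reads, -6.57 above 50 reads (4 sites), -0.00157 at 10% or more and 0.953 with failed calls counted, so its sign is not settled by these data. Leaving out either clone gave 1.37 and 1.43 and 0 called sites. No paired analysis was possible because the WT group has 1 library that serves both clones, and the DMSO and STM2457 groups have 1 library each. Depth limits single sites: at the Lsm14a site, with 28 calls in WT, the interval of the level of 39.3% ran from 21.5% to 59.4%, so smaller differences were not detectable there.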
